A study of Brassica napus with 355 samples.

Results

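The 4 genes described here, BraA09g39680R, BraA09g53180R, Bo4g120250 and Bo8g101580, are the *Brassica napus* genes that the study grouped under the Gene Ontology term for a response to temperature stimulus among the genes responding to water limitation (WL) in accession Av. They are 4 of 106126 gene identifiers in the count tables. They were chosen by their expression in Av under WL and well-watered (WW) conditions, so their values in Av are given as a description without a test. The tests of their WL response in the following leave Av out (it is added back in 1 alternative of the closing section, which is not independent of the choice). The study also listed Bo4g120250 for accession Ab under another term, and Ab stays in those tests. The BraA prefix marks genes of the *B. rapa* reference (BnA subgenome) and the Bo prefix genes of the *B. oleracea* reference (BnC subgenome), so 2 of the genes belong to each subgenome. Both BnA genes carry the label of chromosome A09, Bo4g120250 that of chromosome C4 and Bo8g101580 that of chromosome C8. None of the 4 identifiers was found in the gene name table at hand, so the genes are called by their identifiers and nothing is known here of their products beyond the listed terms.

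The term covers responses to heat and to cold alike, and it holds chaperones, transcription factors and enzymes that act in very different ways. In Arabidopsis, many genes of this kind follow the time of day even at a steady temperature, because the circadian clock gates how strongly temperature can act on them. Several cold-responsive pathways of Arabidopsis are also entered by drought signals, which is why genes under this term are often read beside those of water deficit.

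*B. napus* (oilseed rape and its leafy and tuberous relatives) was grown as 16 accessions in pots held at 20% of full water capacity (WL) or at 100% (WW). The accessions carry the labels Aburamasari (Ab), Alaska_BnASSYST_004 (Al), Aviso (Av), Bristol_BnASSYST-031 (Br), Campari_BnASSYST-075 (Ca), Darmor (Da), DH12075 (DH12), DH2075 (DH20), Gruener Schnittrohl_BnASSYST-219 (Gr), Musette_BnASSYST-056 (Mu), NK_Nemax_BnASSYST-084 (Ne), Quantum NE011 (Qu), Sensaton_NZ_BnASSYST-414 (Se), Stellar DH JZ111 (St), Yudal_BnASSYST-241 (Yu) and Zephir_BnASSYST-068 (Ze). Pots of both treatments were first kept at full capacity, the WL pots were left to dry from day 8, and from day 14 the watering of all pots was raised by 10%. The apex of the youngest leaf was taken at 4 times counted in hours from dawn (ZT1, ZT7, ZT13 and ZT19), from up to 3 separate plants for each accession, treatment and time point. The labels give a cooler night than day in both treatments, but they do not agree on the settings, since one field has 28 °C by day and 22 °C by night with 14 h of light and another has 22 °C by day and 18 °C by night with 16 h of light. Time of day therefore comes with a change of light and a change of temperature, and the 2 cannot be told apart in these samples. The tissue label could not be checked against leaf markers, since the identifiers are not paired with gene names here.

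Of 355 libraries listed, 354 were analysed (172 WL and 182 WW), with 3 libraries in 101 of 128 groups, 2 in 24 and 1 in 3 groups (WL plants of Ab at ZT7, of St at ZT7 and of Ca at ZT13). Total counts ranged from 4950879 to 35177558 in WL libraries and from 3216762 to 32031172 in WW libraries. By their 500 most strongly diel genes, 3 libraries resembled another time point more than their own (Br WW ZT7 replicate 3, Ne WL ZT19 replicate 1 and St WL ZT7 replicate 2, each nearest to ZT13). The tests over accessions were repeated without them, while the CPM ranges, the counts of peak times, the correlations and the tests within single accessions were not. RNA from whole leaf apices was measured, so fewer cells expressing a gene and less RNA per cell cannot be told apart.

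All 4 genes were detected in all 354 libraries. The lowest, median and highest counts were 5, 81 and 375 for BraA09g39680R, 107, 4930 and 58756 for BraA09g53180R, 46, 678 and 2820 for Bo4g120250, and 66, 2834 and 36745 for Bo8g101580. BraA09g39680R therefore carries the largest counting error of the 4. Reads that mapped to several places were counted as fractions, and the count of a gene was not a whole number in 11.0% of libraries for BraA09g39680R, 45.2% for BraA09g53180R, 55.4% for Bo4g120250 and 35.6% for Bo8g101580, so part of their reads also mapped elsewhere. Which other genes share those reads was not tested.

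Per length, the 4 genes spanned a wide range of abundance. As FPKM (fragments scaled by gene length and library size, from the mean of the deposited log2 values over the 8 groups of an accession), BraA09g39680R was the least abundant, at 4.21 in Ab, a median of 9.58 over 16 accessions and 14.1 in Mu. Bo4g120250 had 28.1 in DH20, a median of 41.8 and 67.1 in Se. Bo8g101580 had 202 in DH20, a median of 277 and 372 in Gr, and BraA09g53180R had 130 in Yu, a median of 363 and 482 in Al. Bo4g120250 lay above BraA09g39680R and Bo8g101580 above Bo4g120250 in 16 of 16 accessions. The 2 abundant genes changed places: BraA09g53180R lay above Bo8g101580 in 13 of 16 accessions, with a difference between −0.89 (Yu) and 0.59 (Mu) on the log2 FPKM scale and a median of 0.41.

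Each gene differed in level among accessions. The accession with the highest level exceeded that with the lowest by 1.66 (log2) for BraA09g39680R (limma, Benjamini-Hochberg adjusted p = 3.47e-13), 1.79 for BraA09g53180R (adjusted p = 8.70e-30), 1.28 for Bo4g120250 (adjusted p = 9.74e-05) and 0.79 for Bo8g101580 (adjusted p = 1.57e-06). Of all genes tested, 95.3% passed this test, so a difference in level among accessions did not set the 4 apart. In the order of levels no accession differed from its neighbour by more than the spread of its libraries (median pooled SD 0.74, 0.55, 0.85 and 0.50 log2 in the order the genes are named in this paragraph). The widest gap between neighbours lay in BraA09g53180R, where Ab had 6.87 and DH12 7.43 log2 CPM (counts scaled to a common library size), a gap of 0.56, with only Yu below them at 6.60. Without replicate 2 the difference in Bo4g120250 was 1.10 and no longer passed (adjusted p = 0.0287, limma).

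**Figure D1:**
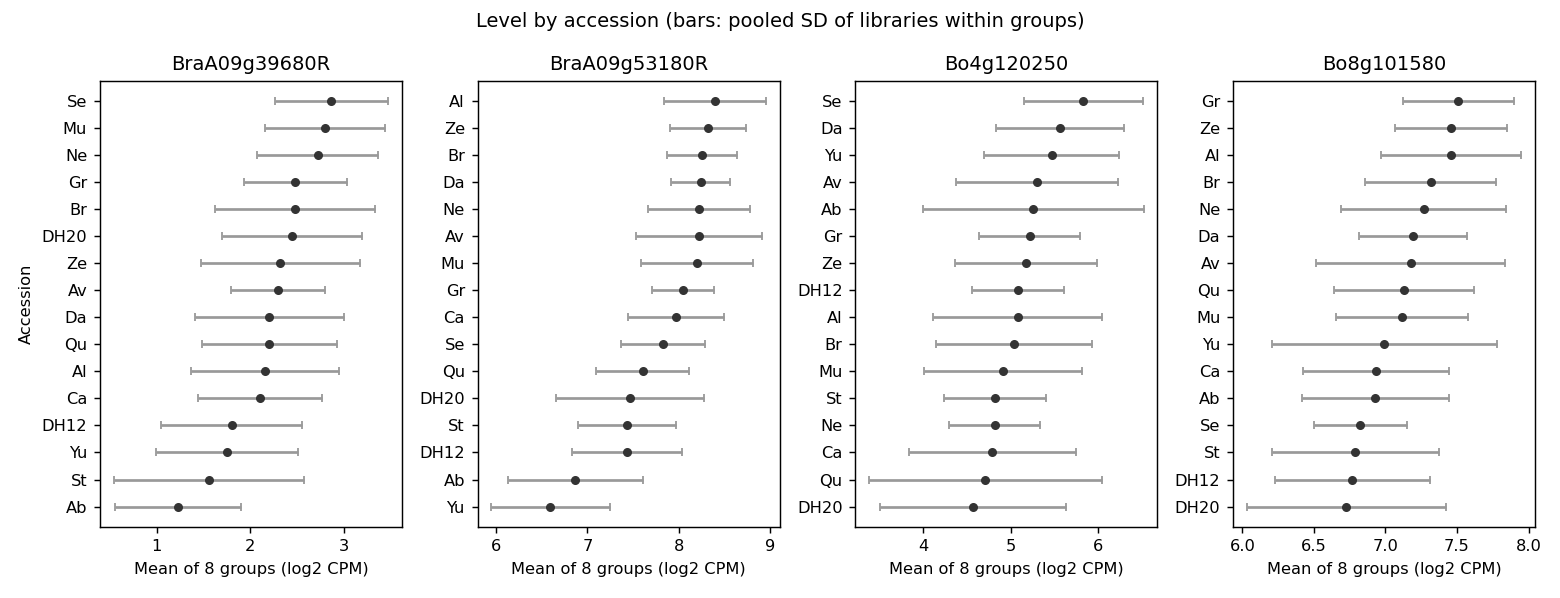
Mean of the 8 groups in log2 CPM in each of 16 accessions for each gene, ordered from high to low, with bars for the pooled SD of libraries within groups. BraA09g53180R is lowest in Yu and Ab, BraA09g39680R is lowest in Ab and highest in Se, and neighbours in each order overlap within their bars.

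BraA09g53180R and Bo8g101580 followed the day most strongly. Across the 15 accessions without Av, BraA09g53180R had in WL plants the lowest, median and highest values of 3.81, 30.9 and 65.0 CPM at ZT1 (39 libraries), 195, 691 and 1730 at ZT7 (38 libraries), 419, 1105 and 1852 at ZT13 (40 libraries) and 21.7, 154 and 623 at ZT19 (43 libraries). In WW plants it had 6.39, 49.2 and 108 CPM at ZT1 (43 libraries), 139, 584 and 2699 at ZT7 (44 libraries), 266, 786 and 1672 at ZT13 (41 libraries) and 32.5, 132 and 296 at ZT19 (43 libraries). No ZT1 library of either treatment reached the lowest ZT7 or ZT13 library. The highest WL value at ZT19, 623 CPM, is that of the Ne library that resembled ZT13.

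Bo8g101580 took a like course. In WL plants its lowest, median and highest CPM were 4.16, 19.5 and 42.7 at ZT1, 223, 600 and 1221 at ZT7, 185, 575 and 1035 at ZT13 and 25.8, 83.9 and 232 at ZT19. In WW plants they were 6.29, 23.9 and 62.8 at ZT1, 161, 482 and 1688 at ZT7, 168, 399 and 1069 at ZT13 and 23.6, 67.8 and 141 at ZT19. Both genes were lowest at ZT1 in 16 of 16 accessions under WL and in 16 of 16 under WW. BraA09g53180R was highest at ZT13 in 12 accessions under WL and 13 under WW and at ZT7 in the others, whereas Bo8g101580 was highest at ZT7 in 9 and at ZT13 in 7 under each treatment.

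The other genes changed far less over the day. BraA09g39680R had in WL plants the lowest, median and highest values of 0.332, 3.12 and 8.91 CPM at ZT1, 2.72, 8.07 and 25.7 at ZT7, 1.81, 7.38 and 23.6 at ZT13 and 0.851, 4.46 and 13.4 at ZT19. In WW plants it had 0.622, 3.49 and 11.4 CPM at ZT1, 0.426, 6.70 and 19.3 at ZT7, 1.45, 5.69 and 16.5 at ZT13 and 0.722, 2.99 and 6.45 at ZT19. The time points overlapped widely, but the peak fell by day, at ZT7 in 9 and at ZT13 in 7 accessions under WL, and at ZT7 in 11 and at ZT13 in 5 under WW.

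Bo4g120250 was the one gene that was already high in the morning. In WL plants its lowest, median and highest CPM were 13.7, 59.8 and 155 at ZT1, 7.53, 66.7 and 130 at ZT7, 3.01, 35.5 and 98.4 at ZT13 and 4.40, 32.3 and 85.0 at ZT19. In WW plants they were 6.22, 34.1 and 108 at ZT1, 6.80, 38.4 and 128 at ZT7, 6.32, 22.9 and 78.2 at ZT13 and 4.28, 18.3 and 60.9 at ZT19. It was highest at ZT1 in 6 and at ZT7 in 9 of 16 accessions under either treatment, and its lowest value fell most often at ZT19, in 8 accessions under WL and 8 under WW. The WL median lay above the WW median at each of the 4 time points.

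**Figure D2:**
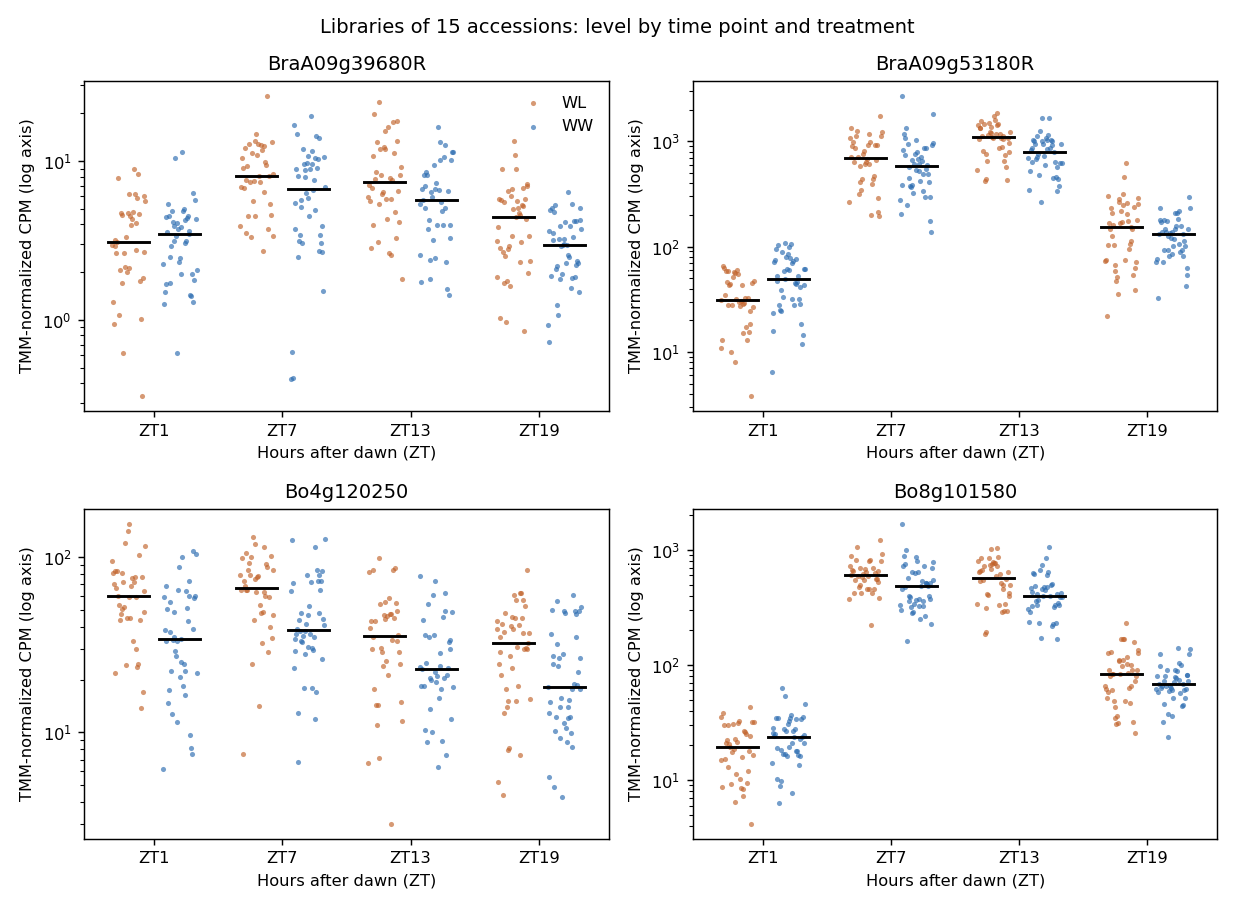
TMM-normalized CPM (log axis) of every library of the 15 accessions without Av by time point (hours after dawn), WL in orange left of WW in blue, with a black line at the median. BraA09g53180R and Bo8g101580 have their lowest values at ZT1 and their highest at ZT7 and ZT13, whereas Bo4g120250 has its highest medians at ZT1 and ZT7.

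The change over the day passed the test in all 4 genes under both treatments (limma F test over the accession means with accession as a block; an adjusted p up to 0.01 counts as a pass). Of the 54542 genes tested, 60.9% passed under WL and 66.6% under WW, so a diel change as such is common in these leaves. The highest mean of the 4 time points exceeded the lowest by 5.16 (log2) under WL and 4.04 under WW in BraA09g53180R (adjusted p = 8.22e-30 under WL and 4.42e-28 under WW). For Bo8g101580 the range was 5.06 under WL and 4.40 under WW (adjusted p = 1.73e-30 under WL and 8.73e-29 under WW). It was 1.31 under WL and 0.95 under WW for BraA09g39680R (adjusted p = 4.02e-09 under WL and 3.92e-06 under WW), and 1.12 under WL and 1.05 under WW for Bo4g120250 (adjusted p = 2.18e-06 under WL and 0.000213 under WW). The median range over all genes tested was 0.53 under WL and 0.53 under WW. Without the 3 libraries that resembled another time point the ranges were 5.16 under WL and 4.04 under WW for BraA09g53180R, 5.05 under WL and 4.39 under WW for Bo8g101580, 1.35 under WL and 0.96 under WW for BraA09g39680R, and 1.19 under WL and 1.10 under WW for Bo4g120250, and all 4 genes passed under both treatments.

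The swing of BraA09g53180R was wider under WL in each accession. Taken within an accession, its range was 5.24 ± 0.56 (log2) under WL and 4.15 ± 0.67 under WW (SD, n = 15 accessions), and it was wider under WL in 15 of 15. For Bo8g101580 it was 5.23 ± 0.59 under WL and 4.57 ± 0.70 under WW, wider under WL in 11 of 15. For BraA09g39680R and Bo4g120250 it was wider under WL in 8 of 15 accessions each. The differences in range were not tested as such. The test of the WL response by time point comes next.

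The WL response was measured in each accession as the mean log2 CPM under WL minus the mean under WW at a time point, and the accession was the unit of replication (15 without Av). At ZT1, 2 of the 4 genes passed the limma test, BraA09g53180R lower and Bo4g120250 higher under WL, where 21.1% of all genes tested passed. At ZT7, ZT13 and ZT19, 0 of 4 passed at an adjusted p of 0.01, against 9.06%, 4.24% and 6.2% of all genes. Unadjusted, a p of at most 0.05 was reached in the limma fits by BraA09g39680R, Bo4g120250 and Bo8g101580 at ZT7, BraA09g53180R, Bo4g120250 and Bo8g101580 at ZT13, and BraA09g39680R and Bo4g120250 at ZT19. Of all genes tested, 36.2% reached that p at ZT7, 31.7% at ZT13 and 32.8% at ZT19. Averaged over the 4 time points, 1 of 4 passed, Bo4g120250, which was higher under WL. Of all genes tested 29.7% passed that test, 14.3% higher and 15.4% lower under WL.

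BraA09g53180R fell under WL at ZT1, its daily low. The median was 30.9 CPM in WL and 49.2 in WW libraries, and the mean difference was −0.70 ± 0.58 (log2, SD, n = 15 accessions, 95% interval −0.99 to −0.40), a fold of 0.617 (limma, adjusted p = 0.00126). It was lower under WL in 13 of 15 accessions. The largest difference, −1.57, was that of Mu, with 27.2 and 30.8 CPM in its WL plants and 106 and 70.7 CPM in its WW plants. The 2 exceptions were Ca (0.54), with 28.2, 43.1 and 44.1 CPM in WL against 28.0, 25.2 and 24.4 CPM in WW plants, and Ab (0.30), with 30.9, 11.0 and 13.0 CPM in WL against 6.39, 15.7 and 23.2 CPM in WW plants. In Ca all 3 WL plants lay above all 3 WW plants, while in Ab the treatments overlapped. Of the 8 accessions with 3 plants per treatment at ZT1, only Al had all WL plants below all WW plants. The share of all genes lying apart in this way is not given here. The call held without replicate 1 (−0.78, limma adjusted p = 0.00174) and was lost without replicate 2 (−0.83, adjusted p = 0.0128) and without replicate 3 (−0.50, adjusted p = 0.0933).

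Later in the day the same gene leaned the other way. At ZT13 it was higher under WL in 14 of 15 accessions by 0.42 ± 0.36 (95% interval 0.21 to 0.63), which did not pass at 0.01 (limma, adjusted p = 0.0117). The accession below 0 was DH12 (−0.58), whose WL plants had 419 and 441 CPM and its WW plants 718, 759 and 484 CPM. Without DH12 the difference was 0.49 and passed (adjusted p = 0.00319), but leaving out the only score below 0 had to raise the mean. With other accessions or replicates left out the ZT13 difference fell as low as 0.31. Over all alternatives its limma adjusted p reached 0.228. The difference was 0.17 at ZT7 (interval −0.10 to 0.44) and 0.15 at ZT19 (interval −0.16 to 0.46). At ZT19 single accessions went far in both directions, with 46.7, 51.0 and 35.3 CPM in WL against 92.6, 128 and 80.9 CPM in WW plants of DH20, and 219, 172 and 247 CPM in WL against 85.3, 102 and 119 CPM in WW plants of Gr. Averaged over the day the difference was 0.01 (interval −0.15 to 0.17, adjusted p = 0.919).

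The WL response of BraA09g53180R therefore depended on the time of day, and this was tested as a change among its 4 scores. The highest mean score exceeded the lowest by 1.12 (limma F test, adjusted p = 0.000138), a test passed by 1 of the 4 genes and by 5.64% of all genes. Without the 3 libraries that resembled another time point the change was also 1.12 (adjusted p = 0.000111), but without replicate 3 it was 0.82 and did not pass (adjusted p = 0.0573).

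Bo8g101580 had scores of the same signs, none of which passed. At ZT1 it was lower under WL in 11 of 15 accessions, by a mean of −0.34 ± 0.67 (95% interval −0.68 to −0.0047, limma adjusted p = 0.107). It was higher under WL in 12 of 15 at ZT7, by 0.32 ± 0.47 (interval 0.07 to 0.56, adjusted p = 0.0604), and in 14 of 15 at ZT13, by 0.35 ± 0.41 (interval 0.12 to 0.57, adjusted p = 0.035). At ZT19 the mean was 0.21 (interval −0.08 to 0.49). The change over the day was 0.69 (adjusted p = 0.0138). It passed without Br (0.76, adjusted p = 0.00709) and without replicate 1 (0.93, adjusted p = 0.00891), but with other accessions or replicates left out it fell as low as 0.41. Over all alternatives the limma adjusted p of this change ran from 0.00361 to 0.52. The ZT1 mean ranged from −0.52 to −0.095 with accessions or replicates left out. The average over the day was 0.13 (interval −0.03 to 0.30, adjusted p = 0.187). The extremes were found in the accessions that stood out for BraA09g53180R. At ZT1 Mu had 10.1 and 8.49 CPM in WL against 36.8 and 20.8 CPM in WW plants, whereas Ca had 13.0, 20.6 and 19.5 CPM in WL against 6.29, 8.85 and 9.82 CPM in WW plants. At ZT13 the one score below 0 was again that of DH12, with 185 and 193 CPM in WL against 329, 365 and 234 CPM in WW plants. Without DH12 the mean was 0.42 and passed (adjusted p = 0.00746), but leaving out the only score below 0 had to raise it. With other accessions or replicates left out the ZT13 mean fell as low as 0.27. Over all alternatives its limma adjusted p reached 0.299.

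Bo4g120250 rose under WL at ZT1 and on average over the day. At ZT1 the medians were 59.8 CPM in WL and 34.1 CPM in WW libraries, and the mean difference was 0.77 ± 0.76 (95% interval 0.40 to 1.15), a fold of 1.71, above 0 in 12 of 15 accessions (limma, adjusted p = 0.00315). The largest was in Ab (1.75), with 95.6, 80.8 and 70.6 CPM in WL against 6.22, 59.0 and 38.6 CPM in WW plants, and the lowest in Yu (−0.80), with 76.6 and 17.0 CPM in WL against 108, 39.0 and 58.7 CPM in WW plants. The ZT1 call was lost without replicate 2 (0.71, adjusted p = 0.0878), without replicate 3 (0.83, adjusted p = 0.0146) and without the accessions that have a group of 1 library, Ab, Ca and St (0.58, adjusted p = 0.0338). At the other time points it was higher in 10 or 11 of 15 accessions, by 0.54 at ZT7 (interval 0.13 to 0.94, adjusted p = 0.0533), 0.44 at ZT13 (interval 0.05 to 0.83, adjusted p = 0.111) and 0.47 at ZT19 (interval 0.13 to 0.80, adjusted p = 0.0508).

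At ZT7 the lowest score of Bo4g120250, −1.30, was that of St, whose only WL library had 29.0 CPM and resembled ZT13, against 78.8 and 64.6 CPM in its WW plants. The highest, 1.92, was that of Br, with 73.1, 68.4 and 105 CPM in WL against 36.2, 38.8 and 6.80 CPM in WW plants, the last of them also one of the libraries that resembled ZT13. Without the 3 such libraries the ZT7 difference was 0.61 and passed (adjusted p = 0.00552, limma), and without St it was 0.67 and passed (adjusted p = 0.00727). Both settings lack the St score, the lowest, since its only WL library at ZT7 is among the 3. With other accessions or replicates left out the ZT7 difference fell as low as 0.44. Over all alternatives its limma adjusted p reached 0.122.

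Averaged over the day, Bo4g120250 was higher under WL in 14 of 15 accessions, by 0.55 ± 0.39 (95% interval 0.36 to 0.75), a fold of 1.47 (limma, adjusted p = 0.000159). The scores reached 1.13 in Br, 1.05 in Ca and 1.03 in Mu, and the one below 0 was that of Ze (−0.09). This call held under all 28 alternatives, with values between 0.48 and 0.65 and adjusted p of at most 0.00422. Its scores did not differ detectably over the day (range 0.33, adjusted p = 0.721).

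BraA09g39680R had no call at any time point. The mean difference was −0.11 at ZT1 (95% interval −0.50 to 0.28, limma adjusted p = 0.669), 0.42 at ZT7 (interval 0.01 to 0.83, adjusted p = 0.125), 0.40 at ZT13 (interval −0.05 to 0.85, adjusted p = 0.205) and 0.42 at ZT19 (interval 0.08 to 0.76, adjusted p = 0.0798). On average over the day it was 0.28 ± 0.42 (interval 0.07 to 0.49), above 0 in 10 of 15 accessions (adjusted p = 0.0293). Its scores spread widely, from −1.49 (Yu) to 1.54 (Da) at ZT1 and from −0.60 (Qu) to 2.78 (Ab) at ZT7. The Ab value rests on 1 WL library with 3.91 CPM, against 0.426, 0.625 and 0.432 CPM in its WW plants. The change of its scores over the day was 0.54 (adjusted p = 0.331).

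Without the 3 libraries that resembled another time point, the ZT7 difference was 0.42 in BraA09g39680R (limma, adjusted p = 0.146), 0.12 in BraA09g53180R (adjusted p = 0.468) and 0.33 in Bo8g101580 (adjusted p = 0.0495), beside the 0.61 of Bo4g120250. At ZT19 it was 0.42 in BraA09g39680R (adjusted p = 0.0832), 0.12 in BraA09g53180R (adjusted p = 0.603), 0.46 in Bo4g120250 (adjusted p = 0.0514) and 0.18 in Bo8g101580 (adjusted p = 0.376). The average over the day was 0.27 in BraA09g39680R (adjusted p = 0.0512), −0.010 in BraA09g53180R (adjusted p = 0.928), 0.55 in Bo4g120250 (adjusted p = 0.000232) and 0.11 in Bo8g101580 (adjusted p = 0.300), and the change over the day in Bo8g101580 was 0.70 (adjusted p = 0.0112). St, whose only WL library at ZT7 was among the 3, had no ZT7 score in this setting. St therefore also left the ZT7 tests and the averages over the day, so these values do not show the effect of the 3 libraries alone. Apart from the ZT7 call of Bo4g120250, leaving out these libraries changed no call of the WL response in the 4 genes.

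**Figure D3:**
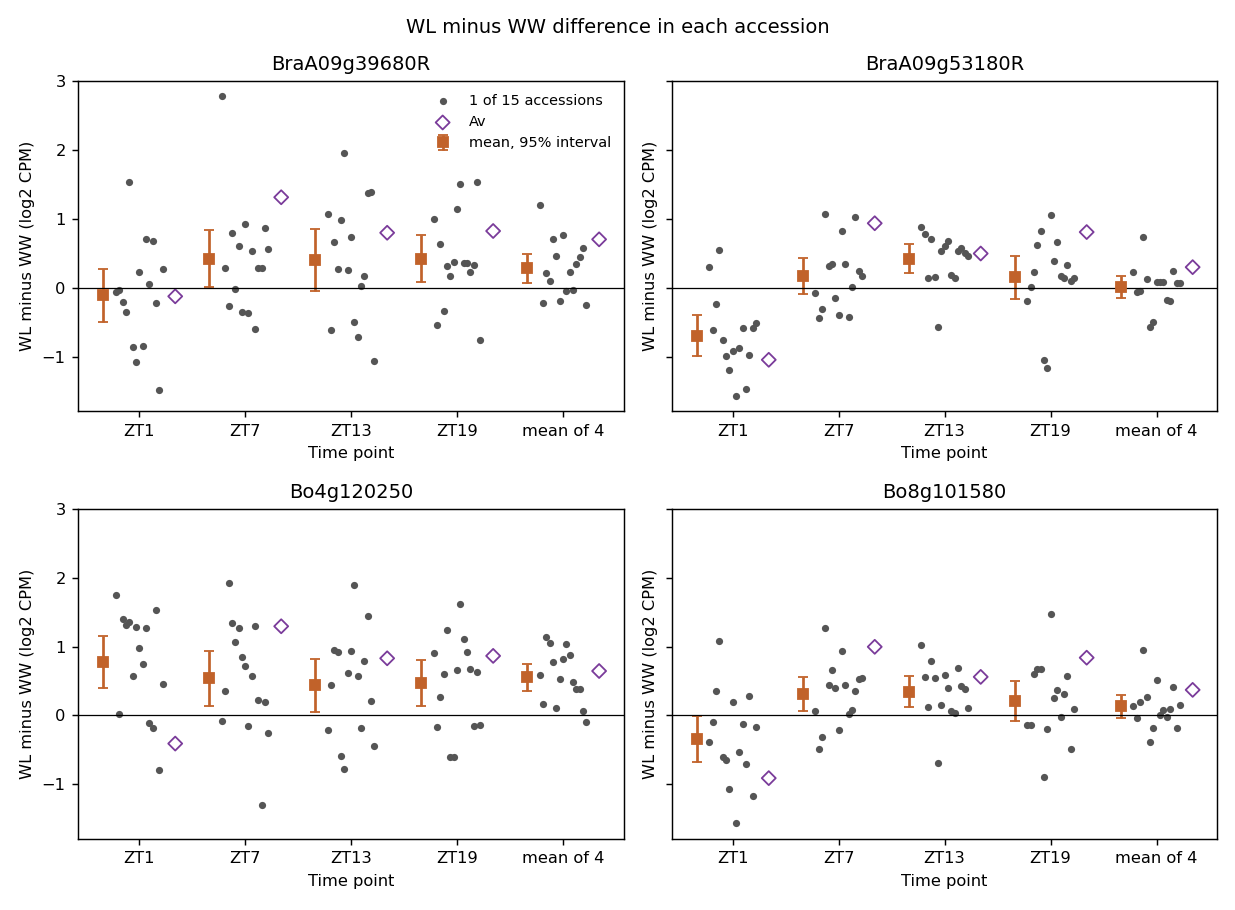
WL minus WW difference (log2 CPM) of each of the 15 accessions (grey points) at the 4 time points and averaged over them, with the mean and its 95% interval (orange, left of the points) and Av as an open diamond. BraA09g53180R lies below 0 at ZT1 in 13 of 15 accessions and above 0 at ZT13 in 14 of 15, and Bo4g120250 lies above 0 on average in 14 of 15.

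In Av, the accession whose WL response chose the 4 genes, all 4 had their largest positive difference at ZT7. Because the genes were chosen on these libraries, a shared time and treatments lying apart in Av are descriptions only. The shares of all genes with either trait in Av were not determined. BraA09g53180R had 8.76, 50.8 and 59.4 CPM at ZT1 in WL against 63.3, 84.5 and 44.1 CPM in WW plants, and 1359, 834 and 2044 CPM at ZT7 in WL against 835, 639 and 618 CPM in WW plants. At ZT13 it had 2216, 932 and 1067 CPM in WL against 896, 877 and 998 CPM in WW plants, and at ZT19 216, 239 and 284 CPM in WL against 133 and 147 CPM in WW plants. The treatments did not overlap at ZT19 and did at ZT1, ZT7 and ZT13.

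Bo8g101580 in Av had 4.70, 10.7 and 32.3 CPM at ZT1 in WL against 23.7, 30.4 and 15.4 CPM in WW plants, and 976, 594 and 1347 CPM at ZT7 in WL against 501, 485 and 405 CPM in WW plants. At ZT13 it had 1198, 489 and 623 CPM in WL against 517, 446 and 493 CPM in WW plants, and at ZT19 75.7, 95.1 and 132 CPM in WL against 45.9 and 65.6 CPM in WW plants. Here the treatments were apart at ZT7 and ZT19.

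BraA09g39680R in Av had 1.78, 4.49 and 4.08 CPM at ZT1 in WL against 3.80, 2.75 and 4.14 CPM in WW plants, and 5.66, 11.8 and 17.7 CPM at ZT7 in WL against 3.42, 3.98 and 5.43 CPM in WW plants. At ZT13 it had 6.10, 11.7 and 9.77 CPM in WL against 5.78, 4.63 and 4.84 CPM in WW plants, and at ZT19 6.31, 3.43 and 5.88 CPM in WL against 2.82 and 2.77 CPM in WW plants. All its WL plants lay above all its WW plants at ZT7, ZT13 and ZT19, and they overlapped at ZT1.

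Bo4g120250 in Av had 50.8, 82.0 and 11.1 CPM at ZT1 in WL against 50.9, 30.6 and 69.9 CPM in WW plants, and 132, 21.4 and 172 CPM at ZT7 in WL against 23.9, 57.0 and 24.0 CPM in WW plants. At ZT13 it had 62.1, 50.8 and 57.6 CPM in WL against 45.8, 25.7 and 27.3 CPM in WW plants, and at ZT19 42.0, 46.4 and 29.8 CPM in WL against 32.0 and 14.1 CPM in WW plants. The treatments were apart at ZT13 only. Its difference at ZT1 in Av was −0.41, whereas the mean of the other accessions was 0.77, and the Av score lay within their range (−0.80 to 1.75).

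**Figure D4:**
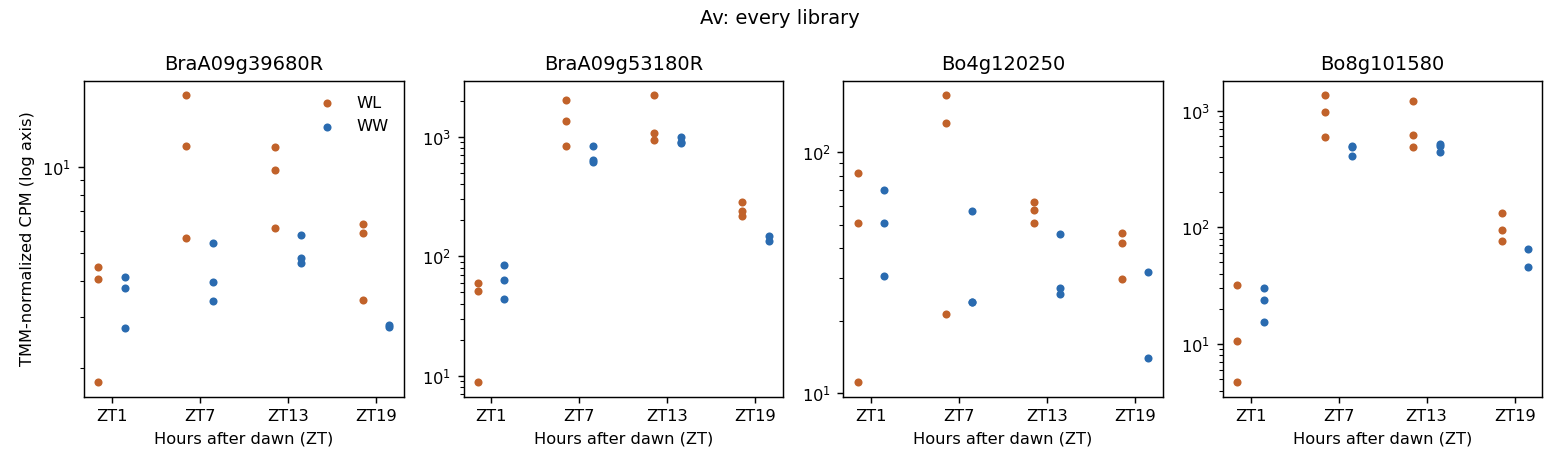
TMM-normalized CPM (log axis) of every Av library by time point, WL in orange left of WW in blue, 3 plants per group and 2 under WW at ZT19. At ZT19 the WL plants of BraA09g39680R, BraA09g53180R and Bo8g101580 lie above both WW plants. The genes were chosen on Av, and the share of all genes lying apart in this way was not determined.

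The mean differences of Av were 1.31, 0.94, 1.30 and 1.00 (log2) at ZT7 for BraA09g39680R, BraA09g53180R, Bo4g120250 and Bo8g101580, and their averages over the day were 0.70, 0.30, 0.65 and 0.37. The other 15 accessions had mean averages of 0.28, 0.01, 0.55 and 0.13 in the same order.

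Within single accessions no WL response of the 4 genes passed with edgeR, though some did with DESeq2. With edgeR's quasi-likelihood test on the rounded counts of 1 accession at a time, 0 of 15 accessions had an adjusted p of 0.01 or less for the average difference, or for the interaction of treatment and time point, in any of the 4 genes. Over all genes and the 15 accessions, 0.477% of tests passed for the average difference and 0.0138% for the interaction. With an unadjusted p of at most 0.05, edgeR gave the average difference in 3 accessions for BraA09g39680R, 2 for BraA09g53180R, 6 for Bo4g120250 and 2 for Bo8g101580, and the interaction in 2, 4, 2 and 3 accessions in that order. Over all genes and the 15 accessions, 19.1% of tests reached that p for the average difference and 8.07% for the interaction. The lowest adjusted p of an average difference was 0.0422, that of Bo8g101580 in Ca, where it was 0.91 (log2) higher under WL. DESeq2 passed BraA09g39680R in Ab (1.18, adjusted p = 0.00903), Bo4g120250 in Ne (0.95, adjusted p = 0.002) and Bo8g101580 in Ca (0.90, adjusted p = 0.00181) for the average difference, and BraA09g53180R in Gr for the interaction (adjusted p = 0.00348). Over all genes fitted in the 15 accessions, DESeq2 passed 3.6% for the average difference and 0.727% for the interaction.

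Whether accessions differed in their WL response was also tested directly, as the interaction of accession and treatment over the libraries of 15 accessions. The fit holds 1 response per accession for all time points together. It therefore cannot show whether accessions differ in how their response changes over the day. The fitted responses spanned 1.19 (log2) for BraA09g39680R, 1.30 for BraA09g53180R, 1.27 for Bo4g120250 and 1.34 for Bo8g101580. The interaction passed in 0 of the 4 (limma, adjusted p = 0.431, 0.316, 0.600 and 0.188 in that order) and in 0.675% of all genes. Before adjustment 1 of the 4, Bo8g101580, was below 0.05, as were 18.6% of all genes.

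BraA09g53180R and Bo8g101580, a BnA and a BnC gene, had nearly the same profile. Over the 128 group means of 16 accessions, centred within accession, Pearson's r was 0.98 between them, 0.66 and 0.68 between BraA09g39680R and each of the pair, and −0.01, 0.05 and 0.19 between Bo4g120250 and BraA09g53180R, Bo8g101580 and BraA09g39680R. The points come from the same libraries and are dominated by the time of day, so the coefficients are descriptions. Across the 15 accessions the scores of the pair also ran together, with r of 0.85 for the average over the day, 0.66 at ZT1 and 0.86 at ZT13. Both genes had counts with fractions of reads, and whether they share reads was not tested.

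**Figure D5:**
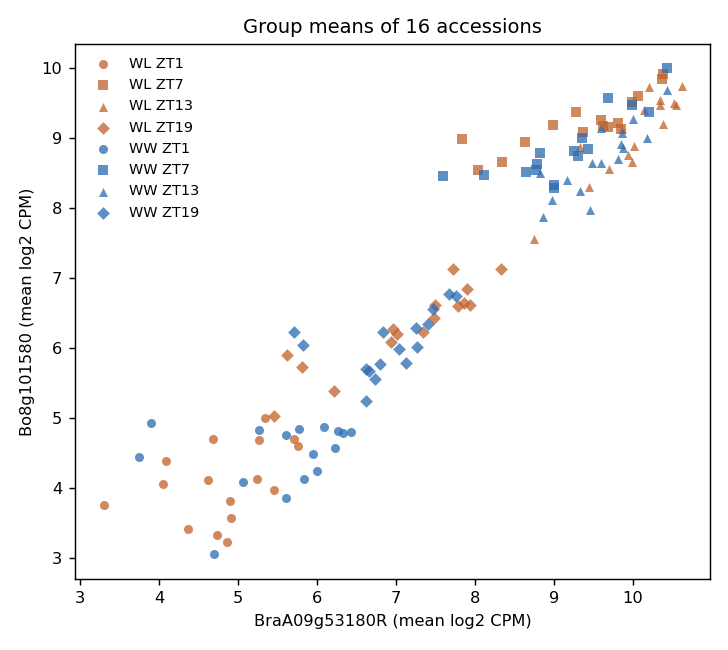
Mean log2 CPM of Bo8g101580 against that of BraA09g53180R in the 128 groups of 16 accessions, 2 treatments and 4 time points (WL in orange, WW in blue, one marker shape per time point). The groups lie along 1 line (r = 0.98 after centring within accession), with ZT1 at the low end, ZT19 between and ZT7 and ZT13 at the high end.

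The genes most like each of the 4 were sought among 44067 genes that passed the filter in all 16 accessions, by Pearson's r over the same 128 group means. These means hold both treatments, so a WL response like that of the gene compared is partly built into the choice. The WL tests of the genes found this way are therefore descriptions. For BraA09g53180R they were Bo8g101580 (0.98), Bo4g147050 (0.97) and BraA04g15180R (0.97), and 112 genes had an r above 0.9. For Bo8g101580 they were BraA04g15180R (0.98), Bo4g147050 (0.98) and BraA09g53180R (0.98), with 175 genes above 0.9. At ZT13, where 4.24% of all genes passed, Bo4g147050 and BraA04g15180R were higher under WL by 0.63 (limma, adjusted p = 0.00187) and 0.49 (adjusted p = 0.00498). At ZT1 their differences were −0.01 and 0.01 (limma, adjusted p = 0.975 and 0.957). How far these 2 genes differ from BraA09g53180R at ZT1 was not tested.

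For Bo4g120250 the closest were Bo4g120270 (0.97), Bo5g116860 (0.97) and BraA05g27030R (0.96), with 45 genes above 0.9. All 3 passed the test of the average over the day, higher under WL by 0.51 (adjusted p = 0.000229), 0.52 (adjusted p = 0.00194) and 0.66 (adjusted p = 0.000812, limma), and all 3 passed at ZT1, higher by 0.85, 0.89 and 0.98. Of all genes tested, 29.7% passed for the average and 21.1% at ZT1. Since the 3 were chosen for their likeness to Bo4g120250 over both treatments, these calls are no independent evidence. BraA09g39680R had no close match: its 3 nearest genes, BraA10g11000R, BraA10g20190R and Bo8g043270, had r of 0.75, 0.73 and 0.72.

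Neighbouring terms of the same supplement gave 3 lists, which the study also chose on these samples, so that they are no independent evidence of a direction. Of 4 genes listed for the response to cold in Gr, 0 were higher and 1 was lower on average under WL, BraA05g15390R by −0.35 ± 0.31 (adjusted p = 0.00124, limma, lower in 13 of 15 accessions), and the median of the list was −0.03. Of 9 genes listed for the regulation of the response to water deprivation in St, 0 were higher and 5 lower, with a median of −0.47. The largest were Bo3g068870 (−0.79), Bo9g010710 (−0.78) and BraA03g37420R (−0.77), each lower in 15 of 15 accessions. Of 3 genes listed for disaccharide biosynthesis in Ab, 2 were higher and 0 lower, Bo4g120270 and Bo4g120250 itself, with a median of 0.51. The median over all genes tested was 0.0035, and 14.3% of them passed as higher and 15.4% as lower under WL. The 15 accessions tested include Gr, St and Ab, on which the lists were chosen. Bo4g120250 stands both on the temperature list of Av and on the carbohydrate list of Ab, the accession with its highest ZT1 score (1.75).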

How the data were processed

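Reads were trimmed (Trimmomatic 0.33) and aligned (HISAT2 2.1.0) by the authors to a joined genome of *B. rapa* R500 plus *B. oleracea* TO1000, and they counted stranded read pairs per gene with featureCounts, splitting reads with several alignments into fractions. The deposited estimated counts (1 table per accession) are not normalized, and the deposited log2 FPKM values were normalized by the authors with edgeR within each accession, without genes that did not vary. Both kinds of table hold all 4 genes in 16 of 16 accessions. One listed library (Br, WW, ZT13, replicate 1) was not analysed here.

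Counts were scaled by TMM within an accession (edgeR 4.0.16, R 4.3.3) to log2 CPM with a prior count of 2. Genes that passed filterByExpr in at least 8 of 15 accessions (54542) were tested with limma 3.58.1 on scores of single accessions at each time point, and F tests of time points had 3 degrees of freedom and accession as a block. Counts were rounded for edgeR's quasi-likelihood test within an accession, with DESeq2 1.42.0 as an alternative. Accessions were compared with limma over all libraries after TMM over all of them. P-values are two-sided, adjusted by Benjamini-Hochberg over all genes of a fit and called at 0.01 or less. Replicates are separate plants. Intervals (95%) are those of the mean over accessions, from limma's standard error, and single accessions can lie outside them. Scripts were checked on simulated data.

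The 4 genes and the gene lists were chosen with earlier results of these data known. The text names the 4 genes, the called genes of each list (or the 3 largest where more than 3 or none were called), and the 3 genes most like each of the 4. Same-numbered replicates of different groups were not more alike than others (median r of their deviations −0.02 and 0.01, higher for the same number in 3 of 16 accessions), so the numbers do not pair the samples. The alternatives were another scale, pseudocount, size factors, filter, threshold or tool, other sets of accessions or replicates, the replicate number as a block and, chosen after the data were seen, leaving out the 3 libraries that resembled another time point. DiPALM, the pattern test of the study, was not run here.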

Additional observations from a re-analysis of the deposited data

Results flagged for a closer look

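The WL response of BraA09g53180R differed between time points of the day, with a range of 1.12 (log2) over its 4 mean scores (limma F test over 15 accessions, Benjamini-Hochberg adjusted p = 0.000138). It was −0.70 at ZT1, 0.17 at ZT7, 0.42 at ZT13 and 0.15 at ZT19, with 13 of 15 accessions below 0 at ZT1 and 14 of 15 above 0 at ZT13.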

How the results depend on the processing

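Over 72 results and 1512 alternatives, 1396 values kept their direction and their side of the threshold (for a test) or lay within 1.5 times the reported count (for a count). These include ranges, which cannot change sign, and counts of 0 that stayed 0, so this total does not measure how stable the WL calls are. The number of the 4 genes called at ZT1 fell from 2 to 0 without replicate 2 and without replicate 3. For the change over the day it fell from 1 to 0 without replicate 3. The cause of the values that moved was not tested unless it lies in how the alternative is built, since leaving out a replicate number or accessions leaves fewer samples. With accessions or replicate numbers left out, the ZT1 difference ranged from −0.83 to −0.50 in BraA09g53180R and from 0.70 to 0.89 in Bo4g120250, the change over the day of BraA09g53180R from 0.82 to 1.32, its average over the day from −0.086 to 0.052, and the ZT1 difference of BraA09g39680R from −0.23 to 0.060. Without the accessions with a group of 1 library (Ab, Ca and St) the ZT1 difference of Bo4g120250 was 0.58 and the average of BraA09g53180R −0.086. That average was −0.010 without the libraries that resembled another time point, a setting that also drops St from it. The number of the 4 genes called ranged from 0 to 2 at ZT1, from 0 to 1 at ZT7, from 0 to 2 at ZT13 and from 0 to 2 for the change over the day when accessions or replicates were left out. It was 1 at ZT1 without Ab, Ca and St, and 1 at ZT7 without the libraries that resembled another time point, which also takes St out of the ZT7 test. At an adjusted p of 0.05 it was 2 at ZT13, 2 for the average and 2 for the change, and with Av included, on which the genes were chosen, 1 at ZT13 and 2 for the change. Within accessions, edgeR called 1 average difference at 0.05 and 0 to 1 with replicates left out, and DESeq2 called 3 average differences and 1 interaction.

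With the replicate number as a block (scores from differences within numbers) none of these calls changed, with −0.68 (adjusted p = 0.00171, limma) in BraA09g53180R and 0.81 in Bo4g120250 at ZT1, and over all genes and accessions 28 interactions were called with the block, against 113 without it. Over all genes, the number called ranged from 5660 to 19185 at ZT1 (11496 as reported), 416 to 11993 at ZT7 (4944), 27 to 8747 at ZT13 (2310), 1 to 9536 at ZT19 (3380), 8403 to 24225 for the average (16179), 720 to 7447 for the change (3075), 22781 to 42732 for the diel change under WW (36344, the lowest on the log2 FPKM scale, which held 31900 genes in all 15 tables) and 29 to 1148 for the interaction of accession and treatment (368). Within accessions it ranged from 412 to 29483 average differences (3910) and from 0 to 5960 interactions (113), the highest by DESeq2. The depth limits BraA09g39680R the most, with a median count of 81.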
